A study of Mus musculus with 6 samples.

Results

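Insulin, amylin and the enzymes that fold and mature them were followed in the mouse insulinoma line Min6, which stands in for pancreatic beta cells and secretes insulin. The set is 9 named genes of 53379 in the deposited tables: the hormone genes Ins1, Ins2 and Iapp, the oxidase gene Ero1lb, the convertase genes Pcsk1 and Pcsk2 with Scg5, and the genes of the trimming enzymes, Cpe and Pam. The genes were taken by name, with earlier results of these data known, and all 9 passed the filter on low counts. All are given, whatever their values, and counts of calls among them are a description and no test of the set. RNA-seq libraries came from cells given lentiCRISPR v2, a lentivirus that carries Cas9 and a guide RNA (gRNA), aimed at JunD (JunD gRNA, 3 libraries) or at the Rosa26 locus, used as a control site (Rosa26 gRNA, 3 libraries). JunD is a subunit of AP-1, a dimeric transcription factor. Cells of both groups were at passage 28, were collected on day 8 after transduction and had spent 30 h in glucolipotoxic conditions, so no unstressed cells were compared here. The labels do not say whether the cells were a mixed population or a clone, or whether the replicates were separate transductions, so the p-values measure the spread between these libraries, which may be technical.

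Beta cells make insulin as a single chain, preproinsulin. After the signal peptide is removed in the endoplasmic reticulum, the chain folds and its disulfide bonds are closed, a step that draws on ERO1-beta, the product of Ero1lb. In the secretory granule the prohormone convertases PC1/3 (Pcsk1) and PC2 (Pcsk2) cut at paired basic residues, carboxypeptidase E (Cpe) trims the exposed basic residues, and C-peptide is released from between the A and B chains. PC2 needs the protein 7B2, encoded by Scg5, to reach an active form. Amylin, the product of Iapp, is stored and released with insulin, passes through the same convertases and is amidated at its C terminus by the enzyme encoded by Pam.

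Mice have a pair of insulin genes, and their coding sequences are shown first because their closeness decides whether reads can be assigned to one or the other. The first 282 coding bases of Ins1 and the first 288 of Ins2, which cover the signal peptide, the B chain, C-peptide and the start of the A chain, are printed 5′ to 3′ as in the GENCODE M21 transcripts, with the bases that differ between them, or stand opposite a gap, in capitals.
Ins1: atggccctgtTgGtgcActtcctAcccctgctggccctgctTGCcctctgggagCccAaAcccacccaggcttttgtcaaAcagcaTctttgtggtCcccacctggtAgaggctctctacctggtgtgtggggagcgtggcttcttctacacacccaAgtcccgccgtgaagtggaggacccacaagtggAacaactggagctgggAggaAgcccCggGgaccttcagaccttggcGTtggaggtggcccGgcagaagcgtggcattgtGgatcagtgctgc
Ins2: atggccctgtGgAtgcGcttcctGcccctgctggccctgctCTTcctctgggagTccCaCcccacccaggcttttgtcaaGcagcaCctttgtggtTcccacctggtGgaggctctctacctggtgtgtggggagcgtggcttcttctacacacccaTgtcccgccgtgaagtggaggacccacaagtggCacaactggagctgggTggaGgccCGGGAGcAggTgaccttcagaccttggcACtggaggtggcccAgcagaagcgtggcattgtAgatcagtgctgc
Over the whole coding sequences, 302 of 333 aligned positions were identical (90.7%), and 31 differed, 6 of them gaps and 30 of them in the stretch shown. The longest run shared by the transcripts was 56 bases. Only 7 of 1013 windows of 50 bases in the Ins1 transcript occurred exactly in the Ins2 transcript, and 0 of 988 windows of 75 bases did. The sources used here give neither the read length nor how reads matching both genes were handled, so the split of counts between Ins1 and Ins2 is uncertain.

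The members lie on 7 chromosomes of GRCm38, the assembly named mm10 in the submitters' processing notes, at the spans of the GENCODE M21 gene models. Ins1 (chr19:52264297-52265476, plus strand, 2 exons) is compact, and the Ins2 gene model (chr7:142678656-142743381, minus strand) includes distal upstream exons, whereas RefSeq places Ins2 at chr7:142678656-142679726. Iapp is at chr6:142298423-142303961 (plus), Ero1lb at chr13:12565874-12611396 (plus), Pcsk1 at chr13:75089826-75134861 (plus) and Pcsk2 at chr2:143546156-143816285 (plus). Scg5 is at chr2:113776362-113829121 (minus), Cpe at chr8:64592542-64693054 (minus) and Pam at chr1:97795114-98095646 (minus). Exons of Pcsk2 overlap those of the antisense genes Pcsk2os1 by 260 bases and Pcsk2os2 by 99 bases, and exons of Pam overlap B230216N24Rik on the same strand by 188 bases. These neighbours held 321 to 403, 20 to 73 and 149 to 246 counts per library, against at least 65485 for Pcsk2 and 57997 for Pam. Without a stated strand setting, reads in the bases Pcsk2 shares with its antisense genes cannot be told apart. B230216N24Rik lies on the strand of Pam, so strand would not separate reads in their shared bases.

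Libraries held 41803921, 41071566 and 49628813 counts with the JunD gRNA and 43408459, 50024931 and 47834207 with the Rosa26 gRNA. Jund, the targeted gene, had 22.6, 25.1 and 26.9 CPM (counts scaled to the library total) in JunD gRNA libraries, against 39.3, 34.5 and 30.4 CPM in Rosa26 gRNA libraries, with no overlap. One library, Rosa26 gRNA replicate 1, stood apart. Its median absolute deviation from the mean of all libraries was 0.303 on the log2 scale, against 0.088 to 0.159 in the other 5. Its summed level of a library-quality set was 9951 CPM, against 2129 to 2378 CPM in JunD gRNA libraries and 2458 to 2663 CPM in Rosa26 gRNA replicates 2 and 3. The set listed structural RNAs (7SK, RNase P RNA, mitochondrial rRNAs, Malat1 and others) and the protein-coding gene Lars2. Of 8 names 7 were matched, with Rmrp at 0. Results are therefore given on all 6 libraries and on the 5 without Rosa26 gRNA replicate 1. The 10 beta-cell markers were all detected. Markers of other islet hormones summed to 673 to 702 CPM with the JunD gRNA and 536 to 723 CPM with the Rosa26 gRNA, and ductal markers to 806 to 836 and 699 to 882 CPM, the lowest value of each being Rosa26 gRNA replicate 1. The hormone sum was largely Gcg, at up to 686 CPM, and the most abundant ductal marker was Krt7, at up to 492 CPM. Acinar markers summed to 27.2 to 28.6 CPM with the JunD gRNA and 18.8 to 26.2 CPM with the Rosa26 gRNA, with 3 of 10 (Cela3b, Prss2 and Ptf1a) at 0. Mesenchymal markers summed to 2.09 to 3.12 and 1.96 to 3.78 CPM (Col3a1 and Lum at 0), immune markers to 2.78 to 3.65 and 3.74 to 4.58 CPM (Adgre1 and Cd3e at 0), and endothelial markers to 2.26 to 2.75 and 3.07 to 3.66 CPM, JunD gRNA first in each pair. The part of these markers and of the library-quality set in the results was not tested.

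With all 6 libraries none of the 9 members passed the test (edgeR quasi-likelihood, Benjamini-Hochberg adjusted p under 0.05), and neither did any of the 17767 genes tested (0.0%). At an unadjusted p under 0.05 stood 3 members, Pam, Ero1lb and Pcsk1, and 2119 genes, 11.9% of those tested. DESeq2 called 67 genes (0.377%) and no member, limma-voom called 0 genes, and limma-voom with sample weights, which counts an aberrant library less, called 293 genes (1.65%), Pam and Ero1lb among them. Without Rosa26 gRNA replicate 1, 5 of 9 members passed the edgeR test, against 523 of 18296 genes (2.86%): Ins2 rose, and Pam, Ero1lb, Pcsk1 and Iapp fell. The members rank from 1 to 132 of 53379 genes by mean CPM, so smaller differences can pass in them than in genes with few counts. The share called among genes of like abundance was not counted. Of all genes, 266 (1.45%) were called higher and 257 (1.4%) lower, so 50.9% of calls were higher with the JunD gRNA. That share was 39.5% with upper-quartile scaling and 63.5% once each library was corrected for its trend with GC content and transcript length (the GC and length correction). The members called were 5 at an unadjusted p under 0.05 (15.9% of all genes), 5 with sample weights (4.48%), 3 with DESeq2 (3.42%) and 2 after the GC and length correction (3.15%). The median log2 fold change of the members was 0.03 on 6 libraries and -0.03 on 5, beside -0.006 and -0.003 for all genes tested. In bulk RNA, a change in the fraction of cells of a type and a change in RNA per cell cannot be told apart.

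**Figure D1:**
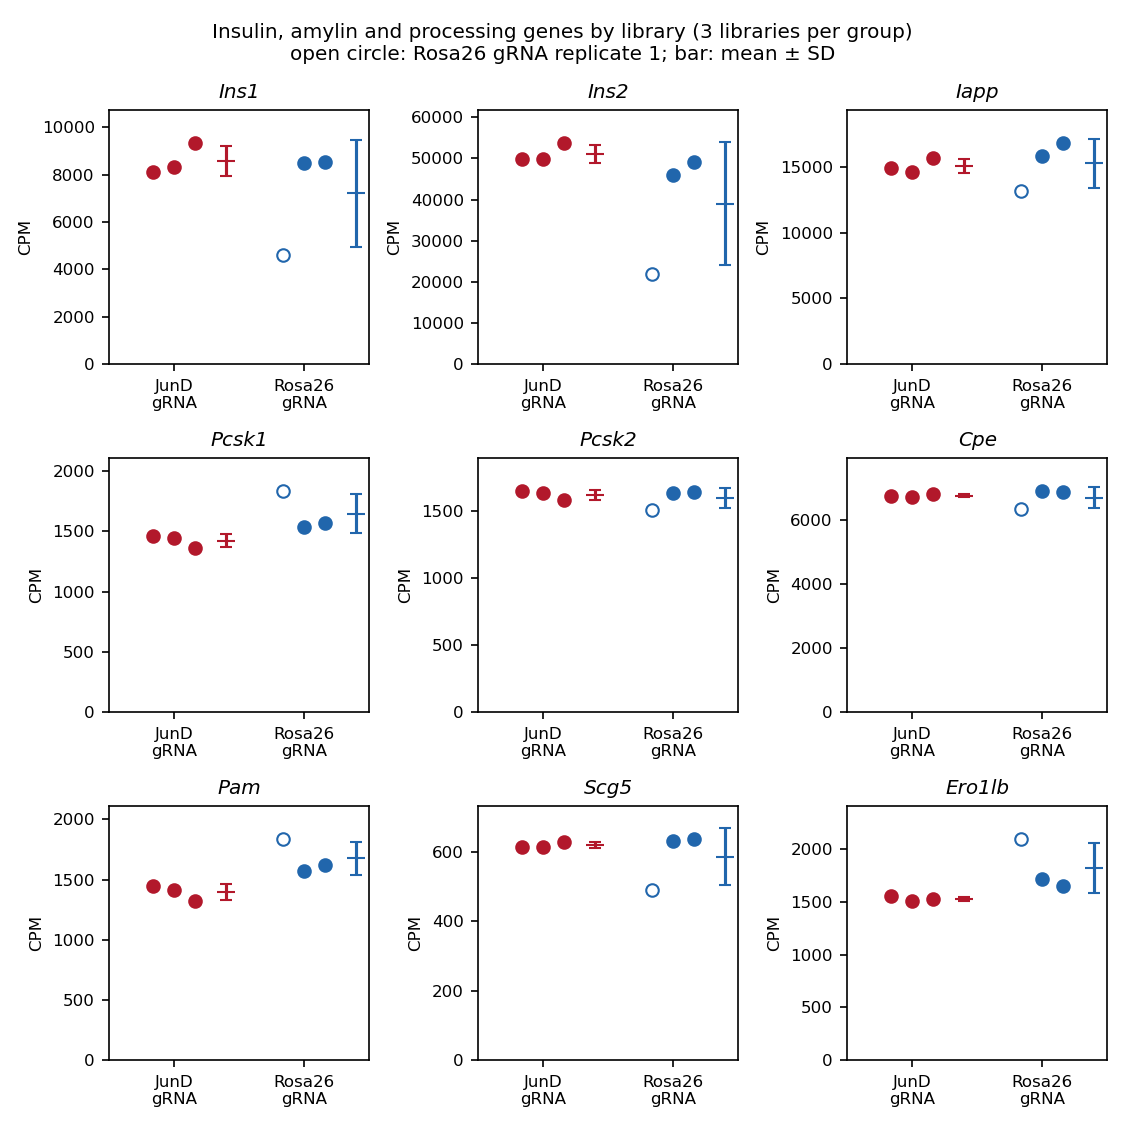
CPM of the 9 members in each of the 6 libraries, 1 panel per gene with its own axis starting at 0; points are libraries (open circle, Rosa26 gRNA replicate 1) and bars are means with SD, with JunD gRNA left of Rosa26 gRNA. Rosa26 gRNA replicate 1 lies below the other libraries for Ins1 (4593 CPM) and Ins2 (21947 CPM) and above them for Ero1lb (2094 CPM) and Pam (1836 CPM).

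Ins2, the mouse counterpart of the single human insulin gene, was the most abundant gene in the libraries by mean CPM. Its level was 49898, 49893 and 53634 CPM in JunD gRNA libraries, against 21947, 45933 and 49125 CPM in Rosa26 gRNA libraries. The JunD gRNA libraries were all above the Rosa26 gRNA ones, and Rosa26 gRNA replicate 1 was far below the rest. The means were 51142 ± 2159 CPM and 39002 ± 14856 CPM (SD, n = 3 each), with a log2 fold change of 0.40 ± 0.25 (SE; edgeR adjusted p = 0.466). Without Rosa26 gRNA replicate 1 the control mean was 47529 CPM and the log2 fold change 0.11 ± 0.03, an increase of 7.94% that passed the edgeR test (adjusted p = 0.0389). After the GC and length correction it was 0.09 (edgeR adjusted p = 0.0169). The call was lost with DESeq2 (adjusted p = 0.107), with upper-quartile scaling (edgeR adjusted p = 0.063), with at least 10 counts required in every library (edgeR adjusted p = 0.0811), and without Rosa26 gRNA replicate 2, which left 1 control library and a log2 fold change of 0.06 (edgeR adjusted p = 0.481).

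Ins1, the rodent insulin gene thought to have arisen by retroposition from Ins2, did not pass in either comparison. It had 8131, 8309 and 9321 CPM with the JunD gRNA and 4593, 8488 and 8556 CPM with the Rosa26 gRNA. The groups overlapped, since Rosa26 gRNA replicates 2 and 3 lay within the range of the JunD gRNA libraries. The log2 fold change was 0.26 ± 0.21 on 6 libraries (edgeR adjusted p = 0.55) and 0.02 ± 0.04 on 5 (edgeR adjusted p = 0.898). Counted as a single gene, Ins1 and Ins2 gave 0.38 (edgeR adjusted p = 0.475) and 0.10 (edgeR adjusted p = 0.0682). Together they took 5.8%, 5.82% and 6.3% of all counts with the JunD gRNA and 2.65%, 5.44% and 5.77% with the Rosa26 gRNA, so every JunD gRNA library exceeded every control.

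Iapp had 14908, 14593 and 15643 CPM in JunD gRNA libraries, against 13187, 15838 and 16777 CPM in Rosa26 gRNA libraries. Rosa26 gRNA replicate 1 was below, and the other controls above, all JunD gRNA libraries. On 6 libraries the log2 fold change was -0.01 ± 0.09 (edgeR adjusted p = 0.979). Without that library it was -0.11 ± 0.03 and passed (edgeR adjusted p = 0.0382), so Iapp fell by 7.43% where Ins2 rose. The call was lost with DESeq2 (adjusted p = 0.0943), with the stricter count filter (edgeR adjusted p = 0.0655) and after the GC and length correction, where the value was -0.03 (edgeR adjusted p = 0.661). It was also lost on leaving out JunD gRNA replicate 1 (-0.10, edgeR adjusted p = 0.0904) or 2 (-0.08, adjusted p = 0.23), or Rosa26 gRNA replicate 2 (-0.15, adjusted p = 0.0622) or 3 (-0.06, adjusted p = 0.687).

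Ero1lb, which encodes the oxidase that re-oxidises protein disulfide isomerase during proinsulin folding, was lower in each JunD gRNA library. Its level was 1551, 1505 and 1523 CPM with the JunD gRNA and 2094, 1720 and 1646 CPM with the Rosa26 gRNA, without overlap. The means were 1527 ± 23.1 and 1820 ± 240 CPM (SD, n = 3 each), and the log2 fold change was -0.24 ± 0.09 (edgeR adjusted p = 0.417). Without Rosa26 gRNA replicate 1 it was -0.14 ± 0.03 and passed (edgeR adjusted p = 0.0186), so the level fell by 9.0%, and DESeq2 called it as well (adjusted p = 0.0066). The GC and length correction gave -0.07 (edgeR adjusted p = 0.189), and the call was lost without JunD gRNA replicate 2 (-0.12, edgeR adjusted p = 0.107) or Rosa26 gRNA replicate 2 (-0.10, adjusted p = 0.356) or 3 (-0.16, adjusted p = 0.199).

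Of the convertase genes, Pcsk1 was called on 5 libraries and Pcsk2 in neither comparison, and the test of the difference between them is that of their ratio given further on. Pcsk1, whose product PC1/3 opens the cleavage of proinsulin, had 1463, 1441 and 1359 CPM in JunD gRNA libraries and 1831, 1536 and 1571 CPM in Rosa26 gRNA libraries. All JunD gRNA values lay below all control values, with means of 1421 ± 55.3 and 1646 ± 161 CPM (SD, n = 3 each). The log2 fold change was -0.20 ± 0.08 on 6 libraries (edgeR adjusted p = 0.417) and -0.12 ± 0.03 on 5, where it fell by 8.25% and passed (edgeR adjusted p = 0.0432, DESeq2 adjusted p = 0.0318). The GC and length correction left -0.02 (edgeR adjusted p = 0.76) on 5 libraries and turned the 6-library value to 0.02, and the stricter count filter gave an adjusted p of 0.0518. The call was also lost without JunD gRNA replicate 2 (-0.13, edgeR adjusted p = 0.103) or Rosa26 gRNA replicate 2 (-0.14, adjusted p = 0.215) or 3 (-0.10, adjusted p = 0.603).

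Pcsk2 had 1645, 1634 and 1579 CPM with the JunD gRNA and 1509, 1636 and 1638 CPM with the Rosa26 gRNA. These ranges overlapped, and the log2 fold change was 0.04 ± 0.07 on 6 libraries (edgeR adjusted p = 0.794) and -0.01 ± 0.03 on 5 (edgeR adjusted p = 0.913). Scg5, the gene of the PC2 partner 7B2, had 613, 614 and 629 CPM with the JunD gRNA and 491, 631 and 636 CPM with the Rosa26 gRNA. Its 2 remaining controls stood just above the JunD gRNA libraries once replicate 1 was left out, and neither 0.09 ± 0.11 on 6 libraries (edgeR adjusted p = 0.681) nor -0.03 ± 0.03 on 5 (edgeR adjusted p = 0.751) passed.

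Cpe, the carboxypeptidase gene, varied least among JunD gRNA libraries relative to its mean. It had 6727, 6711 and 6799 CPM with the JunD gRNA and 6318, 6883 and 6859 CPM with the Rosa26 gRNA, with a log2 fold change of 0.03 ± 0.06 on 6 libraries (edgeR adjusted p = 0.834) and -0.02 ± 0.02 on 5 (edgeR adjusted p = 0.739). Pam, whose product amidates amylin and other peptides, had the smallest p of the members in both comparisons. Its level was 1450, 1412 and 1322 CPM in JunD gRNA libraries, against 1836, 1574 and 1620 CPM in Rosa26 gRNA libraries. The groups did not overlap, with means of 1395 ± 65.5 and 1677 ± 140 CPM (SD, n = 3 each).

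The log2 fold change of Pam was -0.25 ± 0.07 on 6 libraries (edgeR adjusted p = 0.417). On 5 libraries it was -0.19 ± 0.03 and passed (edgeR adjusted p = 0.00332, DESeq2 adjusted p = 0.000481), and the level fell by 12.4%. It also passed after the GC and length correction, at -0.17 (edgeR adjusted p = 0.000275). Leaving out Rosa26 gRNA replicate 2 or 3 ended the call, with -0.21 (edgeR adjusted p = 0.0594) and -0.16 (adjusted p = 0.311) on a single control library, which is assumed there to vary like the JunD gRNA libraries. For comparison, Jund itself was at -0.47 ± 0.11 on 6 libraries (edgeR adjusted p = 0.417, DESeq2 adjusted p = 0.0427, limma-voom with sample weights adjusted p = 0.00722) and -0.38 ± 0.08 on 5 (edgeR adjusted p = 0.00773), and the call on 5 was also lost without Rosa26 gRNA replicate 2 (-0.28, adjusted p = 0.276) or 3 (-0.46, adjusted p = 0.0502).

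**Figure D2:**
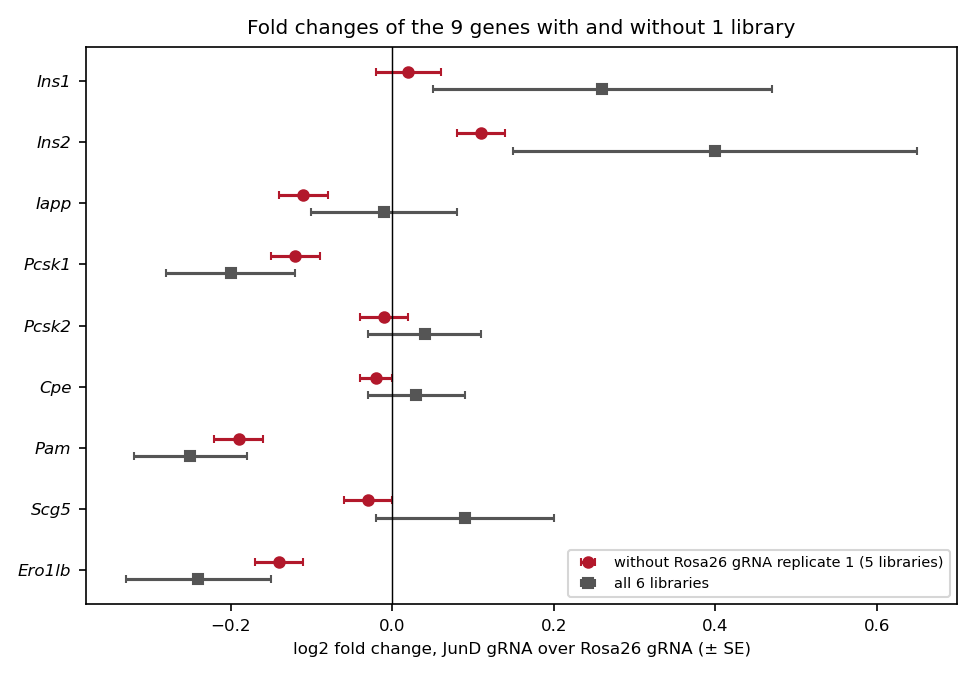
Log2 fold change (JunD gRNA over Rosa26 gRNA) of each member with its SE, on all 6 libraries and on 5 without Rosa26 gRNA replicate 1. On 5 libraries the SE shrinks to between 0.02 and 0.04 and the values lie between -0.19 (Pam) and 0.11 (Ins2).

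Counted by overlap, 4 of 9 members had groups that did not overlap on 6 libraries, with Ins2 higher and Pcsk1, Pam and Ero1lb lower, against 24.4% of all genes tested (11.6% higher and 12.8% lower). On 5 libraries 7 of 9 did not overlap, 1 higher and 6 lower, against 33.0% of all genes (15.7% higher and 17.3% lower). The lower members then also include Iapp, Cpe and Scg5, whose differences were -7.43%, -1.51% and -2.06%. Every value on 5 libraries rests on 2 control libraries.

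Under the GC and length correction, which changes both properties at once, Ins2 and Pam kept their calls on 5 libraries and Ero1lb, Pcsk1 and Iapp lost theirs. The GC content of the longest transcript was 53.6% for Ins2, 49.9% for Pam, 44.0% for Ero1lb, 40.6% for Pcsk1 and 40.5% for Iapp. The other members have 46.9% (Pcsk2), 48.1% (Scg5), 48.2% (Ins1) and 49.7% (Cpe). The separate parts of GC content and length in these differences were not tested.

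**Figure D3:**
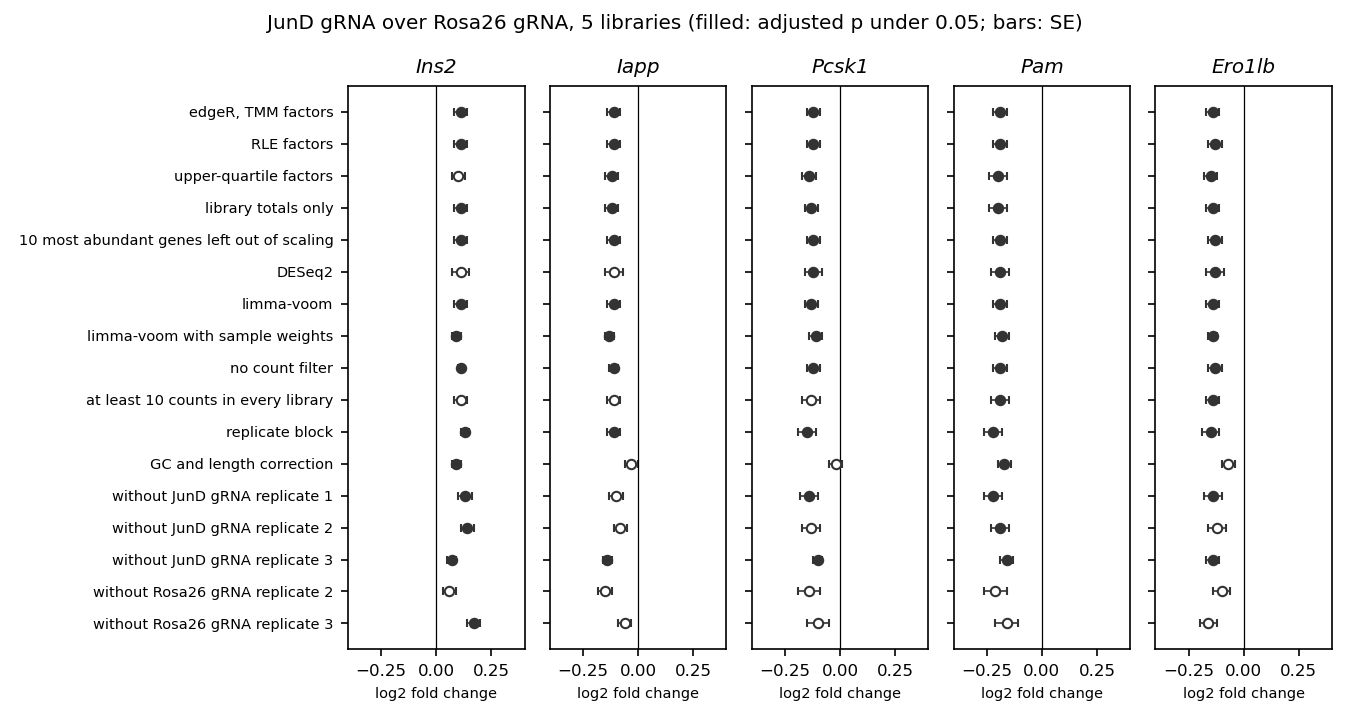
Log2 fold change with its SE of the 5 called members, 1 panel each, on 5 libraries under each processing alternative and with each library left out; filled points passed at an adjusted p under 0.05. Ins2 ranges from 0.09 to 0.13 and Pam from -0.22 to -0.17 over the processing alternatives, whereas Iapp and Pcsk1 reach -0.03 and -0.02 under the GC and length correction.

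Levels were compared between members after scaling to exon length, as RPKM, the CPM divided by the exon length in kilobases. By group means over all 6 libraries, Ins2 came first at 38980 RPKM with the JunD gRNA and 29727 RPKM with the Rosa26 gRNA, then Iapp at 15450 and 15675 RPKM, Ins1 at 8086 and 6791 RPKM and Cpe at 2585 and 2563 RPKM. Scg5 followed at 394 and 374 RPKM, Pcsk1 at 254 and 294 RPKM, Ero1lb at 229 and 274 RPKM, Pcsk2 at 205 and 202 RPKM and Pam at 117 and 141 RPKM. Without Rosa26 gRNA replicate 1 the control means of the hormone genes were 36226 RPKM (Ins2), 16743 RPKM (Iapp) and 8024 RPKM (Ins1). Over all 6 libraries the ranges of Scg5 (313 to 406 RPKM), Pcsk1 (242 to 327 RPKM) and Ero1lb (226 to 315 RPKM) overlap, Pcsk1 being above Ero1lb in 6 of 6 libraries and Scg5 above each of them in 5 of 6. The range of Ins2 (16728 to 40880 RPKM) overlaps that of Iapp (13539 to 17225 RPKM), with Ins2 above Iapp in 6 of 6 libraries, and no other pair of members overlaps. Lengths are the merged exons of GENCODE M21. The files carry another version of the Ins1 identifier, and the distal exons lengthen the Ins2 model, so both insulin values are approximate. Merged exons exceed the longest transcript by unlike amounts, with 11892 against 4102 bases for Pam and 7910 against 4723 for Pcsk2. For Ero1lb they are 6653 against 4239 bases, and for Pcsk1 5604 against 5040. The order among these genes therefore holds for merged exons, and other lengths were not tried.

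Ratios within a library do not depend on scaling to the total. The Pcsk1 to Pcsk2 ratio was 0.89, 0.882 and 0.861 with the JunD gRNA, against 1.21, 0.939 and 0.959 with the Rosa26 gRNA. Every JunD gRNA value was below every control (log2 difference -0.23 on 6 libraries and -0.11 on 5). The ratio of Iapp to the summed insulin counts was 0.257, 0.251 and 0.248 with the JunD gRNA and 0.497, 0.291 and 0.291 with the Rosa26 gRNA, again without overlap (log2 difference -0.46 on 6 libraries and -0.21 on 5). The Ins2 to Ins1 ratio was 6.14, 6.0 and 5.75 with the JunD gRNA and 4.78, 5.41 and 5.74 with the Rosa26 gRNA, replicate 3 being nearly level in the groups (log2 difference 0.17 on 6 libraries and 0.10 on 5).

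Counts of Ero1lb, Pcsk1, Pcsk2 and Cpe per insulin count were lower in every JunD gRNA library than in any control. The insulin sum was itself a larger share of all counts in JunD gRNA libraries (5.8% to 6.3%, against 2.65% to 5.77%). The log2 fold changes of Cpe and Pcsk2 themselves were 0.03 and 0.04 on 6 libraries and -0.02 and -0.01 on 5. How many of all genes have such a lower ratio to insulin was not counted. For Ero1lb the ratio to insulin was 0.0267, 0.0259 and 0.0242 in JunD gRNA libraries, against 0.0789, 0.0316 and 0.0285 in Rosa26 gRNA libraries (log2 difference -0.70 on 6 libraries and -0.23 on 5). For Pcsk1 it was 0.0252, 0.0248 and 0.0216 against 0.069, 0.0282 and 0.0272 (-0.66 and -0.22). Both ratios were below every control without overlap. The ratio of Cpe to insulin gave 0.116, 0.115 and 0.108 against 0.238, 0.126 and 0.119 (-0.44 and -0.12), and that of Pcsk2 gave 0.0283, 0.0281 and 0.0251 against 0.0568, 0.0301 and 0.0284 (-0.43 and -0.11), with JunD gRNA libraries first. The Cpe and Pcsk2 ratios to insulin also lay below all controls, by less once replicate 1 was left out. For Pam to Iapp the values were 0.0972, 0.0968 and 0.0845 with the JunD gRNA and 0.139, 0.0994 and 0.0966 with the Rosa26 gRNA (-0.25 and -0.08), which overlapped, as did Scg5 to Pcsk2 at 0.373, 0.376 and 0.398 against 0.326, 0.386 and 0.389 (0.06 and -0.02).

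The exact two-sided permutation test on these 9 ratios cannot go below p = 0.1, with 3 libraries against 3 or against 2. On 6 libraries 7 ratios were at that floor (exact permutation p = 0.1, adjusted over 9 ratios 0.129), Pam to Iapp at 0.3 and Scg5 to Pcsk2 at 0.8. On 5 libraries 5 ratios were at the floor (exact permutation p = 0.1, adjusted 0.18), namely Iapp, Pcsk1, Cpe and Ero1lb to insulin and Pcsk1 to Pcsk2. The exact permutation p on 5 libraries was 0.4 for Pcsk2 to insulin, 0.2 for Ins2 to Ins1, 0.6 for Pam to Iapp and 0.7 for Scg5 to Pcsk2. The GC and length correction brought the log2 difference of Pcsk1 to Pcsk2 to -0.09 on 6 libraries and -0.05 on 5, and that of Ins2 to Ins1 to 0.09 and 0.06. For the ratios to insulin it gave -0.24 and -0.11 (Iapp), -0.35 and -0.11 (Pcsk1), -0.26 and -0.05 (Pcsk2), -0.37 and -0.09 (Cpe) and -0.48 and -0.15 (Ero1lb), all nearer to 0 than before. Pam to Iapp moved away from 0, to -0.37 and -0.14, and Scg5 to Pcsk2 stood at -0.03 and -0.04. On 6 libraries the exact permutation p became 0.3 for Pcsk2 to insulin, 0.2 for Ins2 to Ins1 and Scg5 to Pcsk2, and 0.1 for Pam to Iapp. The ratios share members, the insulin sum above all, and are not independent of each other.

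**Figure D4:**
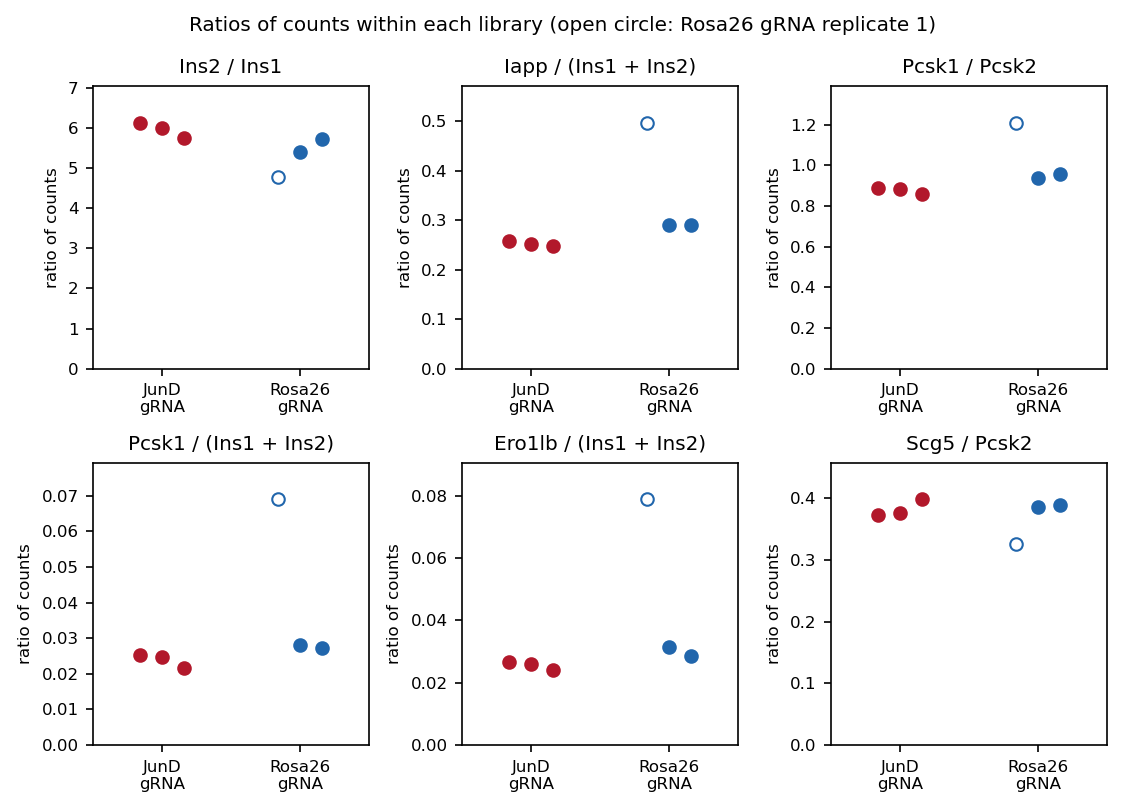
Count ratios within each library for 6 of the 9 ratios, with JunD gRNA left of Rosa26 gRNA and axes from 0; points are libraries, and the open circle is Rosa26 gRNA replicate 1. That library is the highest point of each ratio to insulin shown, such as 0.497 for Iapp, and the lowest for Ins2 to Ins1 (4.78) and Scg5 to Pcsk2 (0.326).

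Promoter windows are shown for Ins1, Iapp and Pcsk1, the members whose RefSeq promoter held a match to 1 of 3 motifs searched. RefSeq promoters on GRCm38.p6, which run 250 bases before to 50 after a start, were found for 7 members, including Pam with 2 of them and Ero1lb under the name Ero1b; Ins2 and Cpe are named only. The motifs were the AP-1 element TGANTCA, the cAMP response element TGACGTCA, which CREB and ATF dimers bind and Jun proteins can bind with ATF partners, and the E-box CAGATG of beta-cell promoters, read CATCTG on the other strand, all on both strands. No match overlapped another. The windows run 5′ to 3′ on the plus strand, with the motif in capitals.
Ins1, chr19:52264147-52264265: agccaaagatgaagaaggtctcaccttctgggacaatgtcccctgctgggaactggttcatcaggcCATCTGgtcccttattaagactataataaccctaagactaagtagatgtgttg
Iapp, chr6:142298275-142298393: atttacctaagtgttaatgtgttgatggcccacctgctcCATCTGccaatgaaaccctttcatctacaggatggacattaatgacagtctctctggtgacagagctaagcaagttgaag
Pcsk1, chr13:75089707-75089825: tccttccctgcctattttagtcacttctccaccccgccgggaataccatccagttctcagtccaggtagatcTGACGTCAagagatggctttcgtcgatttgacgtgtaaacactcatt
The E-box began at position -84 from the start in Ins1, with another at 42 outside the window, and at -111 in Iapp, and the cAMP response element at -78 in Pcsk1. Of 32851 RefSeq promoters of this length, 5635 (17.2%) held the E-box, 588 (1.79%) the cAMP response element and 2565 (7.81%) TGANTCA, which was in none of the members' promoters found. The promoters found for Pam and Ero1lb, which also fell on 5 libraries, and for Pcsk2 and Scg5 held no match to any of the 3 motifs. A match describes letters in the window and is no evidence of binding, and a link between matches and changes was not tested.

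Other genes of insulin production were described from 5 lists, none with a gene called on 6 libraries, where the edgeR adjusted p of the genes named below ran from 0.417 to 0.909. The lists were chosen with earlier results of these data known, so counts of calls in them are a description. Calls in the lists come from the main edgeR test only. They were not tried with DESeq2, after the GC and length correction or with a further library left out. Of all genes tested on 5 libraries, 1.45% were called higher and 1.4% lower. Of 19 transcription factors of the insulin gene, 4 rose on 5 libraries, 0 fell and 15 did not pass, with a median log2 fold change of 0.10, against 1.45% of all genes called higher. Mafa, an activator of insulin transcription, had 273, 274 and 338 CPM with the JunD gRNA and 172, 220 and 208 CPM with the Rosa26 gRNA (log2 fold change 0.47 ± 0.06 on 5 libraries, edgeR adjusted p = 0.000117, and 0.58 on 6). Pdx1, which binds the insulin and Iapp promoters, had 323, 318 and 338 CPM with the JunD gRNA and 277, 262 and 245 CPM with the Rosa26 gRNA (0.37 ± 0.04, edgeR adjusted p = 1.45e-05, and 0.34 on 6). Neither gene's groups overlapped. Nkx6-1 (0.21 ± 0.04, edgeR adjusted p = 0.00552, and 0.18 on 6) and Insm1 (0.18 ± 0.05, edgeR adjusted p = 0.0444, and 0.28 on 6), both factors of beta-cell identity, were the others.

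In the list of 15 granins, granule cargo and other secretory genes 3 rose, 0 fell and 12 did not pass on 5 libraries (median 0.06), against 1.45% of all genes called higher. They were Nnat (0.38 ± 0.04, edgeR adjusted p = 1.63e-05, and 0.38 on 6 libraries), which takes part in signal peptide cleavage of preproinsulin, the neuropeptide gene Npy (0.13 ± 0.03, edgeR adjusted p = 0.0307, and 0.42 on 6) and Sytl4, which encodes the granule protein granuphilin (0.17 ± 0.05, edgeR adjusted p = 0.0426, and 0.10 on 6). The granin genes Chga (0.08), Chgb (-0.10), Scg2 (0.03), Scg3 (-0.09) and Vgf (0.12) did not pass on 5 libraries. Of 22 genes of folding in the endoplasmic reticulum 0 rose, 3 fell and 19 did not pass on 5 libraries (median -0.05), against 1.4% of all genes called lower. The chaperone genes Hspa5 (-0.12 ± 0.03, edgeR adjusted p = 0.0123, and -0.13 on 6 libraries), Hsp90b1 (-0.16 ± 0.04, edgeR adjusted p = 0.0161, and -0.28 on 6) and Canx (-0.13 ± 0.03, edgeR adjusted p = 0.0391, and -0.24 on 6) fell.

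Of 17 tested genes of other prohormone processing 0 rose, 3 fell and 14 did not pass on 5 libraries (median -0.02), against 1.4% of all genes called lower. These were the cathepsin genes Ctsb (-0.17 ± 0.03, edgeR adjusted p = 0.00692) and Ctsl (-0.18 ± 0.04, edgeR adjusted p = 0.00837), of lysosomal proteases, and the carboxypeptidase gene Cpm (-0.22 ± 0.06, edgeR adjusted p = 0.0433, and -0.22 on 6 libraries). On 6 libraries Ctsb was at -0.03 (edgeR adjusted p = 0.909) and Ctsl at -0.07 (edgeR adjusted p = 0.729). Ctsb had 646, 649 and 643 CPM with the JunD gRNA and 544, 725 and 730 CPM with the Rosa26 gRNA, and Ctsl had 337, 331 and 333 CPM and 304, 373 and 387 CPM in the same order of groups, so in both Rosa26 gRNA replicate 1 lay below the JunD gRNA libraries and the other controls above them. In the list of 23 signal peptide and translocon genes 0 rose and 22 did not pass on 5 libraries (median -0.06), and Ssr3, a subunit of the translocon-associated complex, fell (-0.15 ± 0.04, edgeR adjusted p = 0.0386, and -0.19 on 6 libraries). That is 1 gene of 23, where 2.86% of all genes were called in either direction. With all 6 libraries the medians were 0.14 for transcription factors, 0.17 for the granin and granule cargo list, 0.01 for other processing genes, -0.01 for folding and -0.03 for the translocon.

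**Figure D5:**
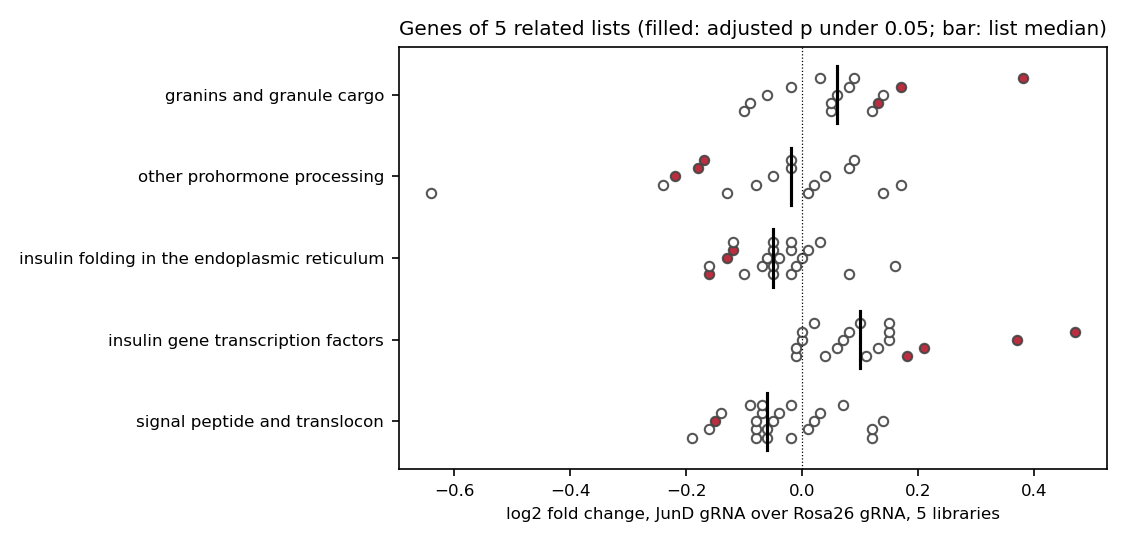
Log2 fold change on 5 libraries of every tested gene in the 5 lists, 1 row per list; filled points passed the edgeR test and bars are list medians. The 4 transcription factors and 3 genes of the granin and granule cargo list that passed lie above 0, and the 3 folding, 3 other processing and 1 translocon genes below it.

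By the root-mean-square difference of library-centred log2 CPM, the genes most like Ins2 over 6 libraries were Atox1 (0.0326), Npy (0.0497) and Gm5905 (0.0527) of 10174 genes with a mean of at least 10 CPM, and Ins1 stood 33rd (0.119). Over 5 libraries they were Asic1 (0.00891), Atp5g1 (0.0109) and Ndufc1 (0.011) of 10178, and Ins1 stood 1702nd. For Iapp they were Tbc1d7 (0.0241), Tes (0.0244) and Agrn (0.0299) over 6 libraries, and Atp11b (0.0108), Tmem50a (0.0114) and Tes (0.0142) over 5. With so few libraries many genes share a pattern, and the values are a description.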

How the data were processed

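RNA from Min6 cells was measured by RNA-seq in 3 JunD gRNA and 3 Rosa26 gRNA libraries. The authors deposited raw counts per gene, whole numbers, 1 table per library. TopHat2, featureCounts and mm10 are named per the submitters' processing notes; the sources used here give no versions, annotation, strand or multi-mapping settings. Groups and replicate numbers came from the titles and gRNA labels. Symbols matched 53274 of 53379 identifiers without the version number, 50604 with it. Libraries held 41071566 to 50024931 counts, and no pair was a duplicate (chi-square over its degrees of freedom at least 3.27).

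The test was edgeR 4.0.16 (R 4.3.3): filterByExpr, TMM factors and a quasi-likelihood fit on group, with two-sided p-values and Benjamini-Hochberg adjustment over all genes tested at 0.05. It ran on 6 libraries and on 5 without Rosa26 gRNA replicate 1, and was tested on simulated data. SEs are the log2 fold change over the square root of F, and are approximate. Alternatives were other scaling, DESeq2 1.42.0, limma 3.58.1 voom, other count filters, a spline correction (5 degrees of freedom) for GC content and length of the longest transcript, a replicate block and each library left out. The rule named all 9 members, Jund, the called genes of each list, and the 3 genes most like Ins2 and Iapp. Members and lists were chosen with earlier results of these data known, as was the choice to leave out that library.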

Additional observations from a re-analysis of the deposited data

How the results depend on the processing

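With 6 libraries the count of genes called was 0 with edgeR, 67 with DESeq2, 293 with limma-voom and sample weights, 86 with no count filter and 25 with the GC and length correction, and ran from 0 to 523 on leaving out a library, the highest being without Rosa26 gRNA replicate 1. The count of members was 2 with sample weights and 0 to 5 with a library left out. With 5 libraries edgeR called 523 genes, against 820 with sample weights and 870 with no count filter, and 46 to 672 with a further library left out, 51 without Rosa26 gRNA replicate 2 and 46 without replicate 3. Of members it called 5, and 0 to 5 with a library left out. Members called were 3 with DESeq2 (626 of all genes), 2 after the GC and length correction (576) and 2 under the stricter count filter (537). The labels do not say whether equal replicate numbers mark paired samples. Same-numbered deviations correlated at 0.0555, -0.0393 and 0.0742, and different-numbered ones at -0.101 to 0.0687. With so few libraries these values cannot decide whether samples were paired. With the replicate block 832 genes, the same 5 members among them, were called on 5 libraries. There JunD gRNA replicate 1 has no control of its number, so it adds nothing to the group difference. On 6 libraries the replicate block called 0 genes. On 6 libraries these log2 values changed sign: Iapp (0.12 after the GC and length correction, -0.11 to 0.08 with a library left out), Pcsk1 (0.02 after that correction), Pcsk2 (-0.01 to 0.07 with a library left out), Cpe (-0.02 with sample weights, -0.02 to 0.06), Scg5 (-0.02 with sample weights, -0.03 to 0.16) and the Scg5 to Pcsk2 ratio (-0.03 after the correction, -0.02 to 0.11). On 5 libraries Ins1 (-0.01 with sample weights, -0.05 to 0.06) and Pcsk2 (0.03 after the correction) did. None of these had passed the edgeR test on the number of libraries named with it, but Iapp and Pcsk1 passed on 5 libraries. The Iapp value of -0.11 is that of the 5 libraries without Rosa26 gRNA replicate 1. The cause of the sign changes was not tested. Ins2 stayed between 0.06 and 0.17, and Pam between -0.22 and -0.16, on 5 libraries under every alternative run. The 5-library values rest on 2 controls, and no member had under 21321 counts in any library.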
